A study of Drosophila melanogaster with 2 samples.

Results

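The peaks described here are the promoter binding sites of Mnt that carry the sequence CACGTG, the E-box of Max dimers. The animals were adult females of Drosophila melanogaster, taken whole, from a transgenic stock in which Mnt carries GFP fused to its C-terminal end. The fusion protein, Mnt-eGFP, was pulled down with anti-GFP and the bound DNA sequenced (ChIP-seq). All samples formed 1 group of 2 biological replicates from this stock, the age of the flies was unknown, and no untreated, untagged or mutant group was analysed here, so no test between groups was possible. Nothing in the labels says which promoter drives the fusion gene or whether the flies also make untagged Mnt. Each deposited region has a position, a summit (the base where enrichment peaked) and a signal, whose scale the authors do not state. Out of 7451 reproducible peaks on the dm6 build, 5367 had their summit within 500 bp of an annotated transcription start, transposable elements left out. Among these promoter peaks, 420 had a whole CACGTG within 100 bp of the summit (7.83%, 95% exact interval 7.12 to 8.58%), and these 420 are the members. In each replicate's own 7451 strongest regions the share was 8.02% ± 0.696 (SD, n = 2).

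Mnt is a basic helix-loop-helix leucine zipper protein that pairs with Max and represses transcription. Myc also needs Max as its partner, and both dimers read the same palindromic E-box, so Mnt is regarded as a counterweight of Myc. In flies, Myc is best known as a driver of cell growth through genes that build ribosomes. A whole fly mixes many tissues, so strong binding in few cells and weak binding in many cells cannot be told apart in these signals.

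The sequences that carry the main pattern are shown first. Each is 26 bases of the Release 6 reference (dm6), read 5′ to 3′, with the E-box in capitals. Members are named by the protein-coding start nearest to the summit. Direction and E-box position follow the start of any gene that lies nearest to the E-box. These starts can differ, as they did at mRpL23 and Rab14. The first set holds strong members whose E-box lay just past the nearest transcription start, in a 5′ UTR, and shows how the E-box sits among unlike surroundings.
Mnn1 (chr2L:7056298-7056323, plus strand): gccatttcggCACGTGctgggtgtgg
Nop56 (chr3R:22421025-22421050, minus strand): ttgaagtaagCACGTGggaaaacaac
mRpL23 (chr3L:2373688-2373713, minus strand): ttggacaaccCACGTGcttttacacg
CG3808 (chr3L:19000565-19000590, minus strand): gttgcatcttCACGTGttttctttct
Nopp140 (chr3L:21832782-21832807, plus strand): aagtagaaaaCACGTGtgagtgcgca

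The second set shares the 10-base form AACACGTGCG on one strand or the other, the form found most often among the members. It shows that both orientations occur and that the same letters stood under strong and weak peaks: the last entry, RluA-2, was the weakest member of all.
Rab14 (chr2L:14355041-14355066, minus strand): atagagggcgCACGTGttgcggactt
pit (chr3R:22035747-22035772, plus strand): tggttagcaaCACGTGcgcgcaatat
Art3 (chr3R:15229370-15229395, minus strand): caaatttccgCACGTGttcgcgccgc
CG10341 (chr2L:18698725-18698750, plus strand): aagaagacaaCACGTGcgtgcattca
RluA-2 (chr2L:10477274-10477299, plus strand): gaaatctgcgCACGTGttgactaact

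The third set holds the 3 promoter E-boxes nearest to a protein-coding start that lay in no region of any dm6 list, for contrast. Burs encodes a subunit of the hormone bursicon.
Burs (chr3R:21769507-21769532, plus strand): ttttccattcCACGTGaaaggacact
CG34332 (chrX:20140999-20141024, plus strand): aagttgctgaCACGTGgcatgacgtt
CG15172 (chr2L:19022402-19022427, plus strand): aaatataaagCACGTGgcgtcggtga

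Promoter peaks with the E-box were stronger than other promoter peaks. Their median pooled signal was 308 (quartiles 162 to 636, range 77.4 to 2444), against 145 (quartiles 104 to 218) for the 4947 promoter peaks without it, a ratio of 2.12. The members' median was 209 in replicate 1 and 108 in replicate 2, where the other promoter peaks had medians of 101 and 46.6. With each replicate's own strongest regions the ratio was 2.18 ± 0.177 (SD, n = 2), so the difference was larger than the spread between replicates. The distributions overlapped, since 87 of the 420 members lay at or below the median of the other promoter peaks. Away from any transcription start, the 224 peaks with the E-box had a median signal of 146 (quartiles 97.4 to 216) and the 1860 without it 120 (quartiles 94.3 to 179). In the same order these medians were 89.4 and 82.7 in replicate 1, and 54.1 and 43.8 in replicate 2.

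The E-box was concentrated among the strongest promoter peaks. It was present in 176 of the 537 strongest (32.8%, 95% exact interval 28.8 to 36.9%), which had signals of 397 or more. The share was 9.87% in the next 537 and 3.55% in the weakest 536. Ranked by the signal of replicate 1 alone, 30.9% of the strongest 537 held the E-box, and by replicate 2 alone 34.0% of the strongest 523. A promoter peak was thus most likely to carry the E-box when it was among the strongest, in both replicates.

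All optimal peaks were kept for reproducibility between these same replicates, so presence in both lists (419 of 420 members) follows from that choice. The members ranked higher in both than other promoter peaks chosen the same way: 379 of 420 (90.2%) were among the 7451 strongest regions of both, against 3545 of 4947 other promoter peaks (71.7%). Across peaks, the rank correlation of the replicate signals was 0.879 over 419 members and 0.536 over 4800 other promoter peaks. These are descriptions: the points of a list share 2 libraries, and the members span a wider range of signal. Of the 50 members with the highest signal in replicate 1, 38 were also among the 50 highest of replicate 2, and for the 100 highest the number was 86. Replicate 1 mostly had the higher signal, with a median ratio to replicate 2 of 2.08 in members and 2.36 in other promoter peaks. A match was the overlapping region with the nearest summit, so a weak summit can be matched to a strong neighbour: 42 members overlapped a stronger optimal peak.

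**Figure D1:**
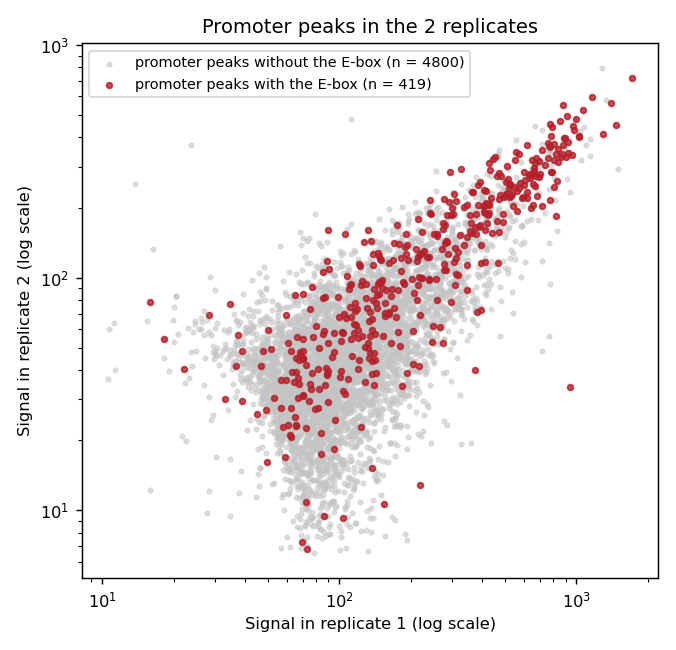
Signal of each promoter peak in replicate 1 (x axis) and replicate 2 (y axis), both in the authors' arbitrary units on log scales. Red points are the 419 members matched in both replicates and grey points 4800 promoter peaks without the E-box; the red points reach farther to the upper right and lie closer to one line.

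The strongest member lay at Mnn1, which encodes menin, a chromatin protein known in humans as a tumor suppressor. It had a pooled signal of 2444, with 1719 in replicate 1 and 721 in replicate 2, and its E-box stood 9.5 bp past the start. Fib encodes fibrillarin, the methyltransferase of box C/D small nucleolar ribonucleoproteins (snoRNPs), which guide methylation of ribosomal RNA. Its signals were 1965 pooled, 1399 in replicate 1 and 565 in replicate 2. The ribosomal protein gene RpL11 followed with 1918, 1467 and 453. Nop56, a core protein of the same snoRNPs as Fib, had 1764, 1169 and 596. The mitochondrial ribosomal protein gene mRpL23 had 1700, 1292 and 413, and Rab14, which encodes a small GTPase of membrane traffic, had 1601, 1068 and 525.

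The other 19 of the 25 strongest members had pooled signals from 1191 (bys, which encodes bystin, a factor of small ribosomal subunit assembly) to 1472 (CG12325). Many lay at genes of ribosome assembly. RIOK2 encodes a kinase of small subunit maturation (1299), kz a helicase of ribosomal RNA processing (1292), pit a DEAD-box helicase of the nucleolus (1255), nop5 a box C/D core protein (1254) and U3-55K a protein of the U3 snoRNP (1233). Others had different roles: Ltn1 (1424) encodes a ubiquitin ligase that acts on stalled ribosomes, and Smyd5 (1219) a SET domain protein. A peak with a signal of 1403 had Bka as its nearest protein-coding start, 199 bp away, but lay closer to Uhg2, a host gene of small nucleolar RNAs. All 25 had a higher signal in replicate 1 than in replicate 2, and their E-boxes stood between 43.5 bp upstream and 46.5 bp downstream of the nearest start.

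**Figure D2:**
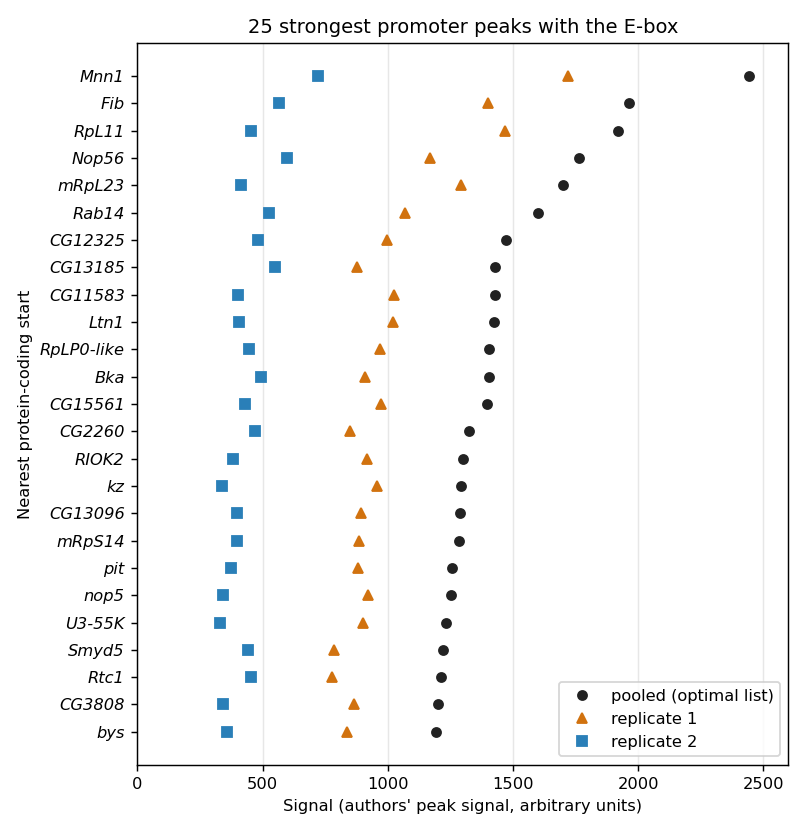
Signal (x axis, the authors' arbitrary units) of the 25 members with the highest pooled signal, each named by its nearest protein-coding start. Circles are the pooled values, triangles replicate 1 and squares replicate 2; replicate 1 lies above replicate 2 in every row, and Mnn1 is highest in the pooled values and both replicates.

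At the other end, the 5 weakest members had pooled signals from 77.4 to 78.4. They lay at RluA-2 (45.0 in replicate 1 and 26.0 in replicate 2), RhoGAP18B (22.2 and 40.5), btd (58.9 and 17.0), CG11722 (60.5 and 23.3) and 14-3-3zeta (15.8 and 78.9). The replicates ordered these differently, with replicate 2 higher at RhoGAP18B and 14-3-3zeta. Their E-boxes stood at least 83.5 bp from the nearest start, on either side of it.

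Position relative to the transcription start set the strong members apart. In 152 of the 420 (36.2%, 95% exact interval 31.6 to 41.0%) the middle of the E-box lay up to 50 bp downstream of the nearest start, whereas 11.2% of all promoter E-boxes of the reference did. The median signal of these 152 was 636 (quartiles 350 to 948), with 448 in replicate 1 and 206 in replicate 2. Over the other 268 members it was 218. Members with the E-box up to 50 bp upstream (57) had a median of 317, and in each class farther away it was between 184 and 239. Among the 50 strongest members 36 had the E-box up to 50 bp downstream, among the 210 stronger ones 120, and among the 210 weaker ones 32. Within those 50 bp, 71 of the 152 E-boxes were centred 30 to 40 bp past the start. The share of members with the E-box anywhere downstream, 61.9%, was near the 62.4% of all 2491 promoter E-boxes, but this total hides opposite shifts. More than 250 bp downstream lay 6.19% of the members' E-boxes and 27.4% of all promoter E-boxes, and up to 50 bp upstream 13.6% and 5.46%.

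**Figure D3:**
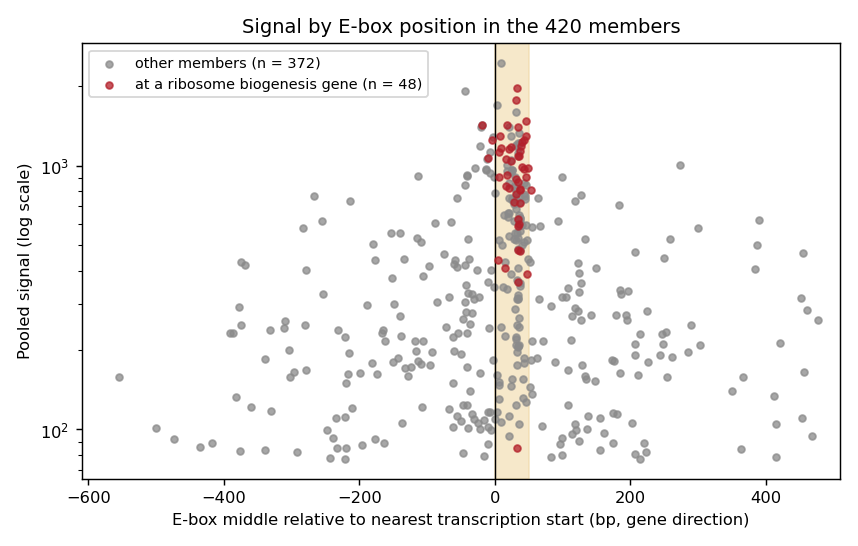
Pooled signal (y axis, log scale, arbitrary units) against the position of the E-box middle from the nearest transcription start (x axis, bp, positive values downstream) for the 420 members. The shaded band marks up to 50 bp downstream, where the median is 636 and where 44 of the 48 members at listed ribosome biogenesis genes (red) lie.

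By annotation, the E-box lay in a 5′ UTR in 221 members, between genes in 88, in an intron in 86, in a non-coding exon in 12, in coding sequence in 11 and in a 3′ UTR in 2. The median signal was 481 for those in a 5′ UTR and between 156 and 250 in each other class.

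The distance from the E-box middle to the summit is bounded by the 100 bp window that chose the members, so its median of 36.5 bp (quartiles 14.5 to 58.8) is a description. It followed the window, with 21.5 bp for a window of 50 bp and 55.5 bp for 200 bp. The side of the E-box on which the summit lay was not part of the choice, but it varied with E-box position. With the E-box 50 to 100 bp downstream of the start, the summit was upstream of it in 21 of 22 members. In the classes farther downstream this held in 44 of 60 and 15 of 26. For E-boxes up to 50 bp upstream of the start it was 36 of 57, and for 50 to 100 bp 7 of 22. For 100 to 250 bp upstream it was 25 of 50, and beyond that 7 of 31. Where the E-box lay up to 50 bp downstream, the summit was upstream of it in 124 of 152 members (81.6%), by a median of 38 bp, and in 127 of 152 by the summits of replicate 1 and 120 of 152 by those of replicate 2. In these members the summit lay close to the start, at a median of 8 bp upstream, and within 50 bp of it in 132 of 152. Other promoter peaks also had their summits near the start, at a median of 18 bp upstream, with 2095 of 4947 within 50 bp. Fragments of 200 to 800 bp, per the labels, are long against these offsets. The offset describes the summits as called, and its cause was not tested.

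Promoter E-boxes of the reference were mostly without a peak. Of 2491 copies of CACGTG within 500 bp of a start, 430 had an optimal summit within 100 bp (17.3%, 95% exact interval 15.8 to 18.8%), and 1292 lay in no region of any dm6 list. Over all 16428 copies on the 6 chromosome arms the share with a summit was 4.03%. It depended on position. With the E-box up to 50 bp downstream of the start, 155 of 278 had a summit (55.8%, 49.7 to 61.7%), and in the 10 bp centred 30 to 40 bp past it 71 of 107 did (66.4%). Up to 50 bp upstream it was 57 of 136 (41.9%), and more than 250 bp downstream 28 of 682 (4.11%). As all promoter peaks crowd around the start, an E-box there is closer to summits of any kind, and the part this plays in the gradient was not tested.

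**Figure D4:**
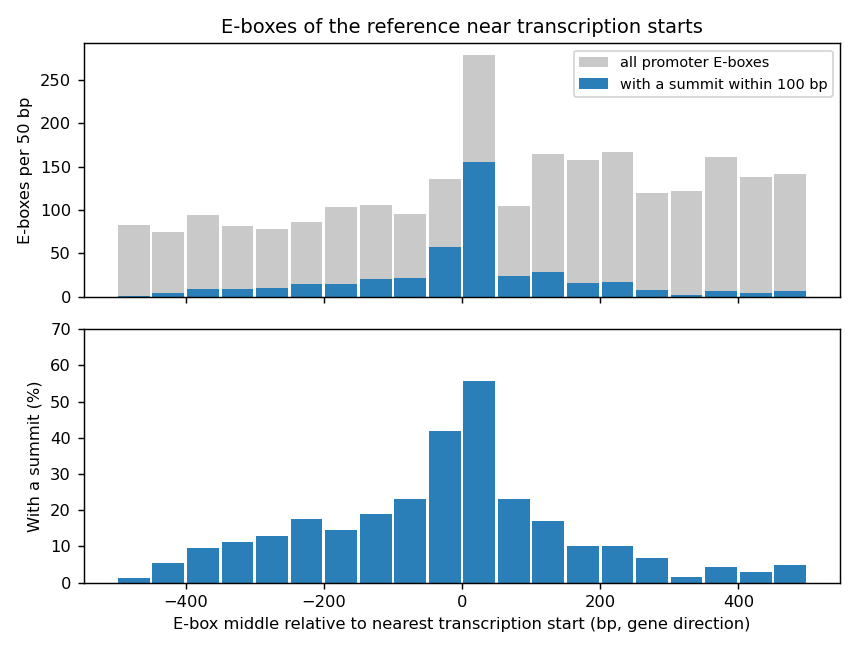
Upper panel, number of CACGTG copies per 50 bp (grey) and those with an optimal summit within 100 bp (blue) by position from the nearest transcription start (x axis, bp, positive downstream). The lower panel gives the share with a summit in percent, which is highest at 55.8% in the first 50 bp downstream.

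Of 19 gene lists, ribosome biogenesis, the nucleolar assembly of ribosomal RNA and proteins, had the highest share of genes at members. An E-box promoter peak lay within 500 bp of a start of 48 of 69 genes of that list (69.6%), where 3.74% of all 13945 protein-coding genes had one. With each replicate's own strongest regions the share was 68.8% ± 3.07 (SD, n = 2), and without 10 genes that earlier results of these data had named it was 39 of 59 (66.1%). With the E-box required within 50 bp of the summit it was 29.0%. Any optimal summit was found at 68 of the 69, against 38.1% of all protein-coding genes. The median signal of the 48 E-box peaks was 978, against 259 for the 372 members at no gene of the list. Of the 100 strongest members, 38 lay at a listed gene. The list is not complete, since bys, an assembly factor gene named above, is not on it. The list was chosen with results of these data known, so its share describes these genes and does not stand as independent support.

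In the listed ribosome biogenesis genes the E-box had a narrow place. It lay up to 50 bp downstream of the start in 44 of the 48, with a median position of 33.5 bp. The reference shows the same place: 46 of the 69 genes (66.7%) carry CACGTG up to 50 bp downstream of one of their own starts, against 245 of 13945 protein-coding genes (1.76%). An optimal summit lay within 100 bp of that E-box in 44 of those 46 genes (95.7%), where 63.3% of all genes with so placed an E-box had one, and 111 of 199 (55.8%) outside the list. Position and list went together but were not the same thing. Among members at no listed gene, 108 with the E-box up to 50 bp downstream had a median signal of 536. The 264 with it elsewhere had 217. As the list is not complete, these members can still lie at genes of ribosome assembly.

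Within the list, members lay at genes of several steps. Of the box C/D proteins Fib, Nop56 and nop5 were described above. The box H/ACA proteins, which guide pseudouridine formation, were all present: Nop10 (1128), the pseudouridine synthase gene Nop60B (1071), Gar1 (986) and NHP2 (822). The replicates gave them 763 and 368, 719 and 352, 621 and 371, and 594 and 223, in the same order of genes, so replicate 1 was higher at each. The GTPase genes Ns1 (1039), Ns3 (973) and Ns2 (806) belong to the nucleostemin family. Nopp140 (1151) encodes a nucleolar chaperone of snoRNPs, Nmd3 (1090) the export adaptor of the large subunit, and Dis3 (1091) and Ski6 (361) subunits of the RNA exosome. The nearest protein-coding start was that of CG17776 for the Nmd3 peak and that of Rrp5 for the Dis3 peak. The lowest entry, CG12301 (84.9), was a weak summit that overlapped an optimal peak with a signal of 1283, whose summit lay too far from the E-box to count. In alphabetical order, the first genes of the list without a member peak were CG1671 and CG3071, which had peaks without the E-box of 433 and 1175.

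**Figure D5:**
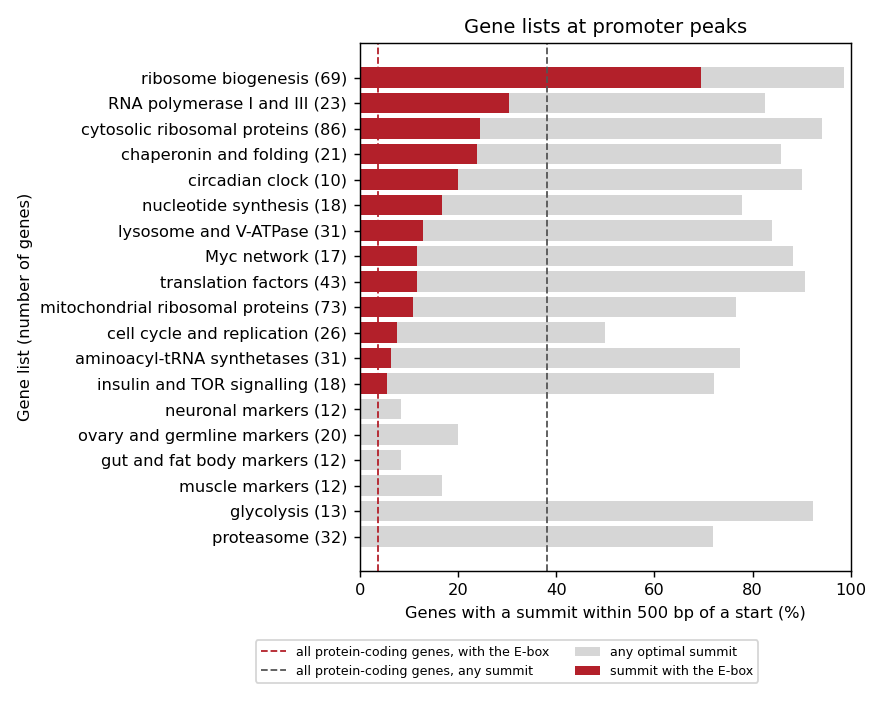
Share of genes (x axis, percent) with an optimal summit within 500 bp of a start, for 19 gene lists with the number of genes in parentheses. Red bars count summits with the E-box and grey bars any summit; dashed lines give the shares over all protein-coding genes, 3.74% and 38.1%, and ribosome biogenesis has the longest red bar at 69.6%.

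Subunit and factor genes of RNA polymerases I and III, the enzymes for ribosomal and transfer RNA, had an E-box peak in 7 of 23 (30.4%). The share over all protein-coding genes was 3.74%. The polymerase I subunit genes Polr1E (1047), Polr1A (847), Polr1H (622), Polr1C (315) and Polr1B (209) were among them, as was the polymerase III subunit gene Polr3A (419). In 6 of the 7 the E-box lay up to 50 bp downstream of the nearest start of any gene. Of the 23 genes, 5 carry CACGTG up to 50 bp downstream of one of their own starts. Bdp1 and Brf, which encode subunits of a polymerase III initiation factor, had peaks without the E-box of 685 and 383.

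Ribosomal protein genes nearly all had a promoter peak, but most of these peaks had no E-box near the summit. An optimal summit lay at 81 of 86 cytosolic ribosomal protein genes (94.2%) and an E-box peak at 21 (24.4%), with a median signal of 522. Over all protein-coding genes these shares were 38.1% and 3.74%. Only 6 of the 21 had the E-box up to 50 bp downstream of the nearest start of any gene, and 8 had it between 183.5 and 273.5 bp downstream. RpS5a was the strongest of those 8, with 1001 pooled, 693 in replicate 1 and 316 in replicate 2, and its E-box stood 273.5 bp past the start. RpL7 (1008; 820 and 184) had it at 18.5 bp downstream, and RpL24 (923; 718 and 202) at 41.5 bp upstream. Of the mitochondrial ribosomal protein genes 8 of 73 had an E-box peak, and 5 of the 8 had signals of 965 or more: mRpL23, mRpS14, mRpS17, mRpS11 and mRpS10. Of these, mRpS17 and mRpS11 share their peak with the ribosome biogenesis genes Nop60B and Ns1. The other 3 peaks were shared too, that of mRpL23 with CG9004, that of mRpS14 with Naa15-16 and that of mRpS10 with Art3.

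Translation factors had an E-box peak in 5 of 43 genes (11.6%), where 3.74% of all protein-coding genes had one. A summit of some kind lay at 39 of the 43, where 38.1% of all protein-coding genes had one. The helicase gene eIF4A was highest (636), followed by pAbp, which encodes the poly(A)-binding protein (405), eEF2 (277), eEF1delta (191) and eEF1alpha1 (188). Among the aminoacyl-tRNA synthetases 2 of 31 (6.45%) had an E-box peak, near the share over all genes, and at GlnRS (1299) it is the peak shared with RIOK2. Chaperonins and folding factors had 5 of 21 (23.8%), led by Hsc70-4 (621), a constitutive Hsp70, with its E-box 389.5 bp downstream. Nucleotide synthesis had 3 of 18 (16.7%): r (579), Gart (318) and Pfas (291), enzymes of pyrimidine and purine synthesis.

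The Myc network itself had an E-box peak at 2 of 17 genes (11.8%), and both encode the partners of the E-box dimer studied here. Mnt had a pooled signal of 468, with 278 in replicate 1 and 217 in replicate 2, and its E-box lay 454.5 bp downstream of the nearest start. A second, weaker member near a start of Mnt had a signal of 180. Max shares its peak (403, 250 and 154) with CG42374 and Mettl5, and the E-box lay 5.5 bp upstream of the nearest start, that of CG42374. Clk and HDAC1, the first 2 genes of the list in alphabetical order without a member, had peaks without the E-box of 171 and 88.0. The circadian clock list had an E-box peak at 2 of 10 genes (20%), where 3.74% of all protein-coding genes had one. Any summit lay at 9 of the 10, against 38.1% of all protein-coding genes. One of the 2 was tim (338), a clock gene whose known control runs through E-boxes read by Clk and cyc. The other was Pdp1 (376), a basic zipper gene of the clock's second loop.

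The remaining growth and housekeeping lists are given beside the 3.74% of all protein-coding genes with an E-box peak. The insulin and TOR list had 1 of 18 genes (5.56%), rictor (106), which encodes a subunit of TOR complex 2. The V-ATPase and lysosome list had 4 of 31 (12.9%), with Vha55 (414) and Vha44 (304) highest. The Vha44 peak is shared with Hmgs, whose start lay nearest. Cell cycle and replication had 2 of 26 (7.69%), Orc2 (617) and Dp (208). Proteasome genes had 0 of 32 and glycolysis 0 of 13, although 23 and 12 of them had a summit without the E-box. No E-box peak lay at any of 20 ovary and germline markers, 12 neuronal, 12 muscle or 12 gut and fat body markers. Any summit lay at 4, 1, 2 and 1 of them, where 38.1% of all protein-coding genes had one. Lists of this size are too short to set a count of 0 apart from the share over all genes.

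Members with no protein-coding start within 500 bp numbered 22. Several of the stronger ones were host genes of small nucleolar RNAs: Uhg1 (1058), Uhg3 (637) and Uhg8 (271). A start of a small nucleolar RNA lay within 500 bp of 12 of 420 members (2.86%, 95% exact interval 1.49 to 4.94%) and of 25 of 4947 other promoter peaks (0.505%, 0.327 to 0.745%). For transfer RNA starts the numbers were 2 of 420 (0.476%) and 25 of 4947 (0.505%).

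The bases next to the hexamer varied with signal and with occupancy. With strands merged, ACACGTGC was the most frequent 8-base form, in 138 members (32.9%), though it made up 20.6% of promoter E-boxes. Its members had a median signal of 508, and 27.8% of its promoter copies had a summit. The form CCACGTGC had 54 members with a median of 328, and ACACGTGT had 45 with 323. The lowest medians were 159 for CCACGTGG (16 members), 167 for CCACGTGA (19), 169 for GCACGTGA (31) and 179 for TCACGTGA (10), and of these TCACGTGA had the lowest share of promoter copies with a summit, 9.09%. The forms also differed in position: 73 of the 138 ACACGTGC members had the E-box up to 50 bp downstream, and none of the 10 TCACGTGA members had. Within that interval the median was 729 for ACACGTGC and 617 for all other forms, and elsewhere it was 249 and 211. Of the 48 members at listed ribosome biogenesis genes, 31 had the form ACACGTGC. Away from those genes, the medians within the interval were 557 for ACACGTGC (43 members) and 520 for all other forms (65).

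The longer form AACACGTGCG, shown above, was found in 28 members with a median signal of 738 and a range from 77.4 to 1601. Of its 61 promoter copies 29 had a summit (47.5%), and there are 192 copies on the 6 arms. It was read in the direction of the gene with the nearest start in 14 of the 28, so no orientation prevailed. Only 10 members held 2 copies of CACGTG within 100 bp, led by Ltn1 (1424), bys (1191) and Nop60B (1071).

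Other promoter motifs within 100 bp of the summit, searched on both strands, are given here as shares of members, of other promoter peaks and of canonical promoters. The DNA replication-related element TATCGATA was in 42 of 420 members, 8.15% of other promoter peaks and 7.50% of canonical promoters (100 bp to each side of the start). Motif 1, searched as GGTCACAC, was in 7.62%, 7.44% and 6.52%. The TATA box, searched as TATAAA, was in 17.9%, 24.7% and 28.9%, and so least common in members. The initiator core TCAGT was in 37.6%, 35.6% and 43.0%, the GAGA element GAGAG in 29.8%, 28.8% and 22.8%, and CAGCTG, the E-box of other dimers, in 15.7%, 15.9% and 13.8%. Of the hexamers that differ slightly from the E-box, CACGCG was in 9.05% of members and 10.1% of other promoter peaks, with 5.87% of canonical promoters. For CATGTG the shares were 9.52% and 12.1%, with 5.79% of canonical promoters, and for CATGCG they were 6.43% and 6.61%, with 5.16%. Each motif was counted on its own, and matches of different motifs may overlap. Members with the replication-related element had a median signal of 623 and those without it 274. With and without Motif 1 these medians were 604 and 274, and with and without the TATA box 341 and 298. They were 270 and 320 for the initiator core, 232 and 354 for the GAGA element, and 257 and 314 for CAGCTG. For CACGCG they were 283 and 308, for CATGTG 345 and 297, and for CATGCG 224 and 313.

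The limits that chose the members cut through peaks of like signal. Just inside the 500 bp limit lay mura (493 bp from a start, signal 166), RhoGEF3 (486 bp, 101) and bc10 (467 bp, 94.7), and just outside it CG13868 (525 bp, 122), hebe (526 bp, 156) and Atet (531 bp, 217). Just inside the E-box limit lay RpL32 (E-box middle 97.5 bp from the summit, 520), CG17776 (95.5 bp, 1090) and CG2258 (95.5 bp, 192). Just outside it lay Oatp33Ea (98.5 bp, 217), Ctps (98.5 bp, 168) and RpL34b (99.5 bp, 1472), since the whole hexamer had to lie in the window.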

How the data were processed

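The authors' deposited lists give for each region a signal and a −log10 q-value. The q-value is capped, so signal alone was used. Replicate lists hold 30000 regions each, weak background included. The optimal list was thresholded by the irreproducible discovery rate, per the labels. No source used here names the aligner, the caller or the read depth. Control libraries were not analysed here. The antibody field of the labels says Mnt, the description anti-GFP.

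Summits were set against the Release 6 sequence and Ensembl release 115 (35497 transcripts), with Python 3.11.15, numpy 2.4.6, pandas 2.3.3, scipy 1.17.1 and matplotlib 3.10.9. Replicate values come from the overlapping region with the nearest summit. Shares have 95% exact (Clopper-Pearson) intervals, which treat peaks as independent and cover counting error only. No p-value was computed. The search was tested on simulated sequence first.

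The members, the 19 gene lists and the rule for named genes (the strongest and weakest members, up to 6 per list, those at each limit and flank form) were chosen with earlier results of these data known. Of 397 list entries 13 were unmatched and 12 matched by synonym, and 5 wrong entries were removed after values were seen. Of the genes this rule selects, 2 are not reported here.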

Additional observations from a re-analysis of the deposited data

How the results depend on the processing

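The signal ratio was above 1 under each alternative run. Of the values recomputed, 31 moved by more than the spread (SD) between replicates and 25 did not. For the median distance this spread was 0, with 38.5 bp in both replicates, so any change counted as a move. With CACGTG within 50 bp of the summit (257 members) 4.79% of promoter peaks held it, the signal ratio was 1.80, the median distance 21.5 bp, the share downstream 57.6%, the share of promoter E-boxes with a summit 10.5% and the share of ribosome biogenesis genes 29.0%, against 69.6% as reported; their E-boxes stood a median of 50.5 bp from the summit. Within 200 bp (592 members) these were 11.03%, 1.69, 55.5 bp, 64.0%, 22.4% and 73.9%. With 250 bp to a start the distance was 37.5 bp, the share downstream 63.9% and of E-boxes with a summit 26.4%; with 1000 bp the ratio was 1.83, the distance 35.5 bp and the E-box share 11.7%. Protein-coding starts alone gave 37 bp and 19.2%. The stronger 50% of optimal peaks gave 11.5% of promoter peaks, 38.5 bp, 65.6% downstream and 13.8% of E-boxes; the strongest summit per region gave 16.5% of E-boxes. Leaving out 1 replicate gave 7.53 to 8.51% of promoter peaks, ratios of 2.06 to 2.31, 38.5 bp in both cases, 62.4 to 65.1% downstream, 16.8 to 17.7% of E-boxes and 66.7 to 71.0% of ribosome biogenesis genes. Chosen after seeing the data, the list without earlier named genes gave 66.1%, and canonical starts put 65.7% downstream. The cause of these moves was not tested, beyond the number of members each setting leaves. No paired analysis was possible because there was 1 group. Read depth is unknown, so no limit on undetected binding can be given.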

Other observations

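The replicates differed most at weak or overlapping summits. Of 419 members with both values, 21 had a ratio of replicate 1 to replicate 2 over 5 or under 0.5, and 11 of the 21 overlapped a stronger optimal peak. Among the highest ratios were those at CG12301 (27.8), CG1785 (14.6), frtz (11.1) and Vha100-2 (10.7). The lowest were at 14-3-3zeta (0.201), CG4301 (0.333), CG10911 (0.408), Ent2 (0.450) and RhoGAP18B (0.548), each with a pooled signal under 100.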
